A study of Homo sapiens with 12 samples.

Results

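The 7 genes described here write, copy and erase 5-methylcytosine in DNA: the DNA methyltransferases DNMT1, DNMT3A and DNMT3B, the hemimethylated-CpG reader UHRF1, and the TET dioxygenases TET1, TET2 and TET3. They were taken by symbol from the deposited count tables, in which all 7 were present among 23368 symbols. The cells were SUDHL6, an established human cell line of the germinal centre subtype of diffuse large B-cell lymphoma, so each group samples 1 line and no patient. Vehicle cells received 0.01% DMSO and treated cells 200 nM GSK591, an inhibitor of the arginine methyltransferase PRMT5, for 24 or 96 h. The 4 groups (vehicle and GSK591 at each time) held 3 poly(A) RNA-seq libraries each, 12 in all, and each time had its own vehicle.

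DNA methylation is set down on unmodified CpG pairs by the de novo enzymes DNMT3A and DNMT3B. It is copied after each round of replication by DNMT1, which UHRF1 brings to the half-methylated daughter strands. The TET enzymes oxidise 5-methylcytosine to 5-hydroxymethylcytosine and further products, which are diluted at replication or cut out by base excision repair. DNMT1 is abundant in dividing germinal centre B cells, and TET2 and DNMT3A are recurrently mutated in blood cancers. These libraries measure mRNA only. Neither the methylation of DNA nor any protein was measured.

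Levels are given as CPM, the counts scaled to a common library total with TMM factors over the 12 libraries, and an error after a level is the SD over 3 libraries. Differences are log2 fold changes ± SE from edgeR's quasi-likelihood test, two-sided, with Benjamini-Hochberg adjustment over all genes tested, and a gene is said to be called where the adjusted p was under 0.05. Whether the 3 libraries of a group are separate cultures is not in the labels, and p-values therefore measure a spread that may be technical. In bulk RNA, fewer cells of a kind and less RNA per cell cannot be told apart. Total counts lay between 48.5 and 64.4 M in 11 libraries, and the first vehicle library of 96 h held 547.9 M. At 96 h the 2 libraries numbered 2 stood apart: their mean log2 CPM over 14 proliferation genes was 0.16 (vehicle) and 0.20 (GSK591) above the mean of their own group. List counts at 96 h that move with these libraries are therefore given with and without them, as are UHRF1, DNMT3B, TET1 and TET3. For DNMT3A and DNMT3L the range over alternative fits is given. The B-cell markers matched the label, with all 8 present and a summed level of 7593 to 8982 CPM. Of 9 markers of other cell types, 8 had group means under 1 CPM. The exception was the myeloid and lysosomal gene CD68, at a mean of 8.38 to 11.4 CPM.

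**Figure D1:**
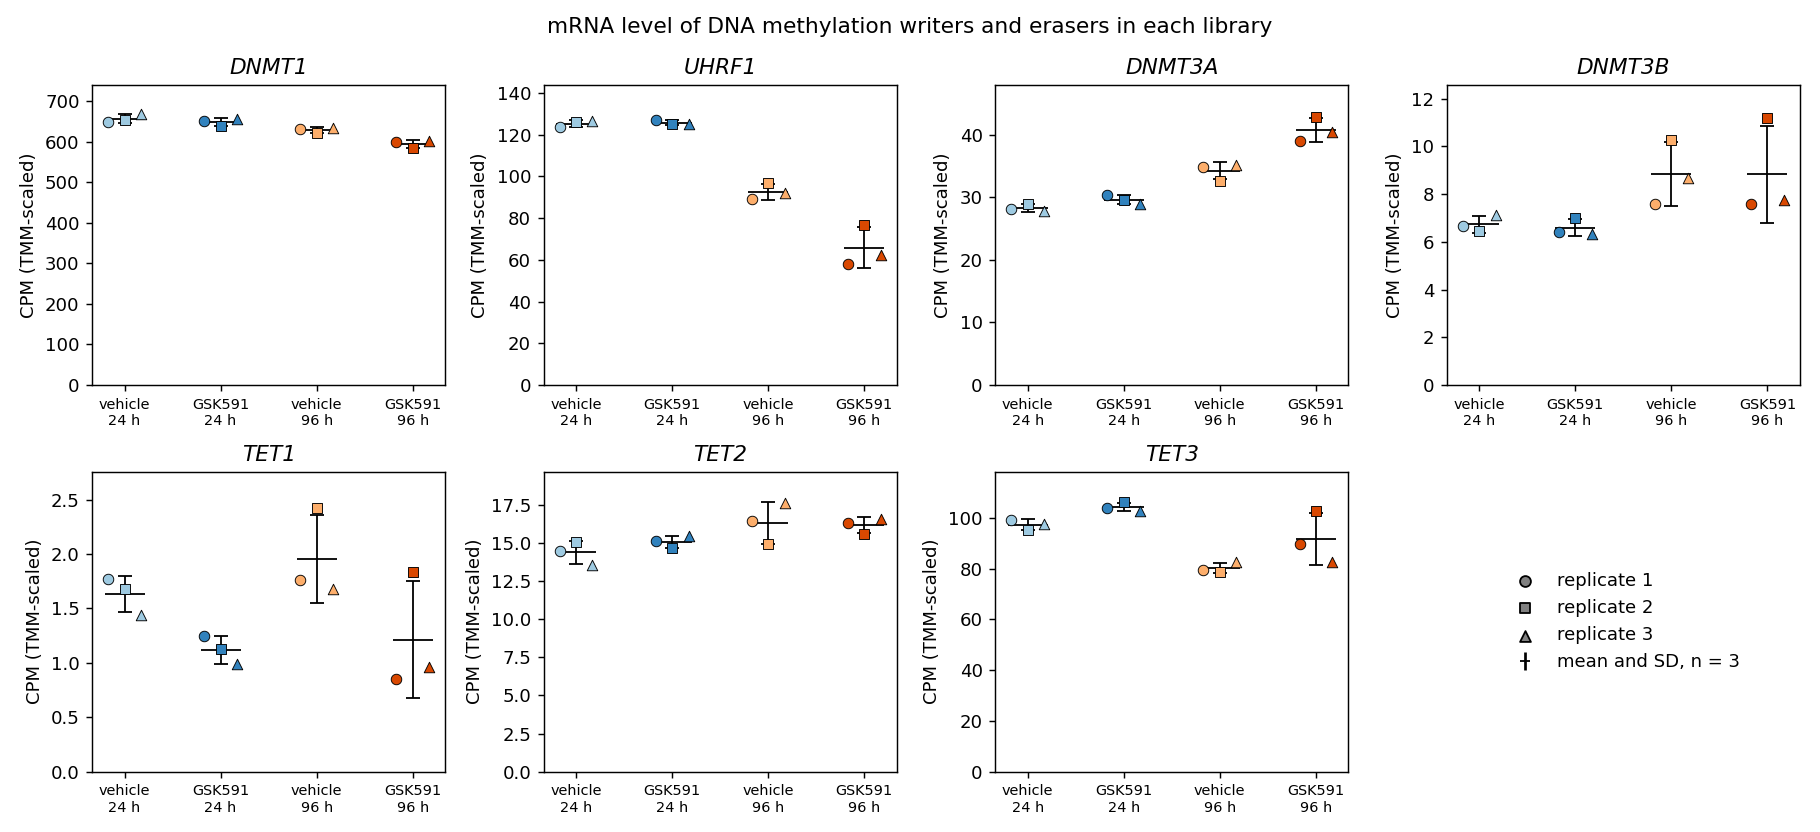
CPM after TMM scaling (vertical axes, from 0) of the 7 genes in each of the 12 libraries, by group (horizontal axis). Circles, squares and triangles are replicates 1, 2 and 3, and bars give the mean and SD of 3 libraries. UHRF1 is lowest in the 3 GSK591 libraries of 96 h, and DNMT3A is highest there.

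The 7 genes covered a wide range of abundance. Divided by gene length (CPM per kb of annotated exon), DNMT1 was the most abundant in vehicle at 24 h with 120 CPM per kb, at percentile 96.6 of the 12050 genes with a length. UHRF1 followed with 24.3 CPM per kb, at percentile 78.5, and TET3 with 8.48, at percentile 54.3. DNMT3A stood at 2.63 CPM per kb, DNMT3B at 1.46, TET2 at 0.914 and TET1 at 0.176, the last at percentile 10.7. In this line the maintenance pair thus outweighed the de novo enzymes at the RNA level, and TET3 was the leading TET transcript. The order of the 7 was the same in all 4 groups and with the longer, comprehensive gene models, which lowered DNMT1 to 67.0 CPM per kb.

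At 24 h 1 of the 7 was called higher (TET3) and 1 lower (TET1), where 14.7% of all genes tested were called, 7.44% higher and 7.29% lower. At 96 h 1 was called higher (DNMT3A) and 1 lower (UHRF1), against a background of 40.2% (20.7% higher and 19.6% lower). With 7 genes, neither count is read as a property of the set. The median log2 fold change of the 7 was 0.00 at each time, and that of all genes tested was also 0.00 at each time.

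**Figure D2:**
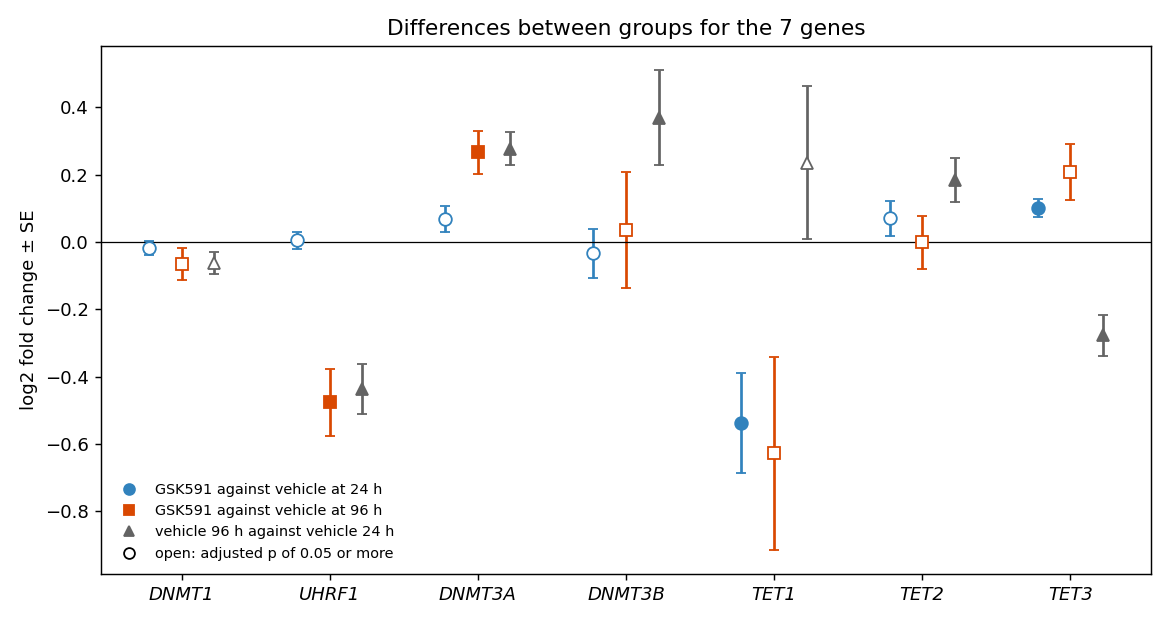
Log2 fold change ± SE (vertical axis) of the 7 genes (horizontal axis) for GSK591 against vehicle at 24 h and at 96 h and for vehicle at 96 h against vehicle at 24 h. Filled symbols passed an adjusted p of 0.05. UHRF1 and DNMT3A are the 2 filled squares of the 96 h treatment, at -0.48 and 0.27.

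UHRF1 was lower in GSK591-treated cells at 96 h and not at 24 h. UHRF1 recognises half-methylated CpG through its SRA domain and recruits DNMT1 to replicating DNA. At 24 h its level was 123, 126 and 126 CPM in the vehicle libraries and 127, 125 and 125 CPM in the GSK591 libraries. These groups overlapped, with a log2 fold change of 0.00 ± 0.02 (adjusted p = 0.933). At 96 h the vehicle libraries held 89.2, 96.9 and 91.8 CPM and the GSK591 libraries 58.0, 76.9 and 62.5 CPM. All 3 treated libraries lay below all 3 vehicle libraries, and the second library of each group was the highest. The means were 92.6 ± 3.88 CPM in vehicle and 65.8 ± 9.86 CPM in treated cells, a log2 fold change of -0.48 ± 0.10 (adjusted p = 0.00678) or 28.1% less mRNA. The difference between the 2 times was itself called, at -0.49 ± 0.11 (adjusted p = 0.00566). It was the only difference between times called among the 7 genes, where 24.1% of all genes were called. Without both libraries numbered 2, the 96 h log2 fold change was -0.58.

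DNMT1, the maintenance methyltransferase that UHRF1 recruits, was called at neither time. At 24 h the vehicle libraries held 649, 653 and 669 CPM and the GSK591 libraries 652, 638 and 656 CPM, which overlapped. At 96 h they held 632, 621 and 634 CPM in vehicle and 600, 584 and 602 CPM after treatment. The 3 treated values of 96 h lay below the 3 vehicle values, yet the fitted difference of -0.07 ± 0.05 was not called (adjusted p = 0.306). At 24 h the value was -0.02 ± 0.02 (adjusted p = 0.629).

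The unequal change of the maintenance pair can be read within each library, free of scaling, as the ratio of UHRF1 to DNMT1 counts. At 24 h that ratio was 0.190, 0.193 and 0.189 in vehicle and 0.195, 0.196 and 0.190 after GSK591 (two-sided exact permutation p = 0.3, n = 3 against 3). At 96 h it was 0.141, 0.156 and 0.145 in vehicle and 0.0967, 0.132 and 0.104 after GSK591. The groups of 96 h did not overlap, and the log2 ratio was lower by 0.42 in treated cells, with an exact permutation p = 0.1, the smallest that 3 against 3 allows.

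The promoter letters of this pair are shown because both genes are known to be transcribed with S phase, for which E2F factors are the textbook regulators. RefSeq (GRCh38.p14) windows from 250 bases before to 30 bases after the annotated start were searched on both strands for 3 spellings of the E2F motif, TTTCCCGC, TTTGGCGC and TTTCGCGC, and for CCAAT. All 7 genes had at least 1 window, 18 in all, and 3 windows of 2 genes, DNMT1 and UHRF1, held an E2F spelling. Of 34943 windows of the same length in the table, 2.59% held one. Capitals mark the spelling, which lies on the opposite strand in both windows below and so appears as its reverse complement. The window of DNMT1 is chr19:10194924-10195203 on the minus strand, and that of UHRF1 is the first of its 3, chr19:4909251-4909530 on the plus strand.
DNMT1: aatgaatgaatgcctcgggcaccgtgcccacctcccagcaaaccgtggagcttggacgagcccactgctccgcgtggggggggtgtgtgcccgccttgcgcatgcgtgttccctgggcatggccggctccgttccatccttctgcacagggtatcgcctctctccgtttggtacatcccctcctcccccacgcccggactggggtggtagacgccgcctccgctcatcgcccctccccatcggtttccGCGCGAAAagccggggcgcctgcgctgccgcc
UHRF1: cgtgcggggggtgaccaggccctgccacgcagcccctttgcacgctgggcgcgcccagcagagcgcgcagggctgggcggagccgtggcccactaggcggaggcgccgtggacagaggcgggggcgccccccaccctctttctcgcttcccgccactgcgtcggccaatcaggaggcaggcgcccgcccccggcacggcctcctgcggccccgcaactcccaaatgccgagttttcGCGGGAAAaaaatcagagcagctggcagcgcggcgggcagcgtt
The DNMT1 match (TTTCGCGC) spans positions -2 to 6 from the start, and the UHRF1 match (TTTCCCGC) spans -14 to -7. The second UHRF1 window held TTTCGCGC at -160 to -153. The UHRF1 window shown also held CCAAT at -86 to -82, a pentamer present in 33.7% of all windows. CpG pairs numbered 27 in the DNMT1 window and 32 in the UHRF1 window, against a median of 12 over all windows. This is not particular to the pair, since a DNMT3A window held 41 and a TET3 window 40, while the DNMT3B window held 3. Each E2F spelling searched holds a CpG itself, so its share over all windows is not matched for CpG. A match describes letters only, and no binding was measured here.

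UHRF2, the paralogue of UHRF1 that also binds modified CpG through an SRA domain but is not known to replace UHRF1 in maintenance, went the other way. It stood at 77.3, 79.8 and 76.7 CPM in the vehicle libraries of 96 h and at 123, 122 and 119 CPM in the GSK591 libraries. The 2 groups were far apart and each was narrow. UHRF2 rose at 96 h by 0.65 ± 0.05 (adjusted p = 0.000261) and at 24 h by 0.16 ± 0.03 (adjusted p = 0.00039), and the 2 effects differed by 0.47 (adjusted p = 0.000123). The 24 h call of UHRF2 held in 12 of 13 alternative fits (highest adjusted p = 0.0791). Within libraries, the ratio of UHRF2 to UHRF1 counts was 0.842 ± 0.0221 in vehicle and 1.87 ± 0.268 in treated cells at 96 h (n = 3 each, exact permutation p = 0.1, the smallest possible). At 24 h it was 0.611 ± 0.00687 and 0.680 ± 0.00423 (exact permutation p = 0.1). This ratio was added after the values of the 2 genes had been seen.

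**Figure D3:**
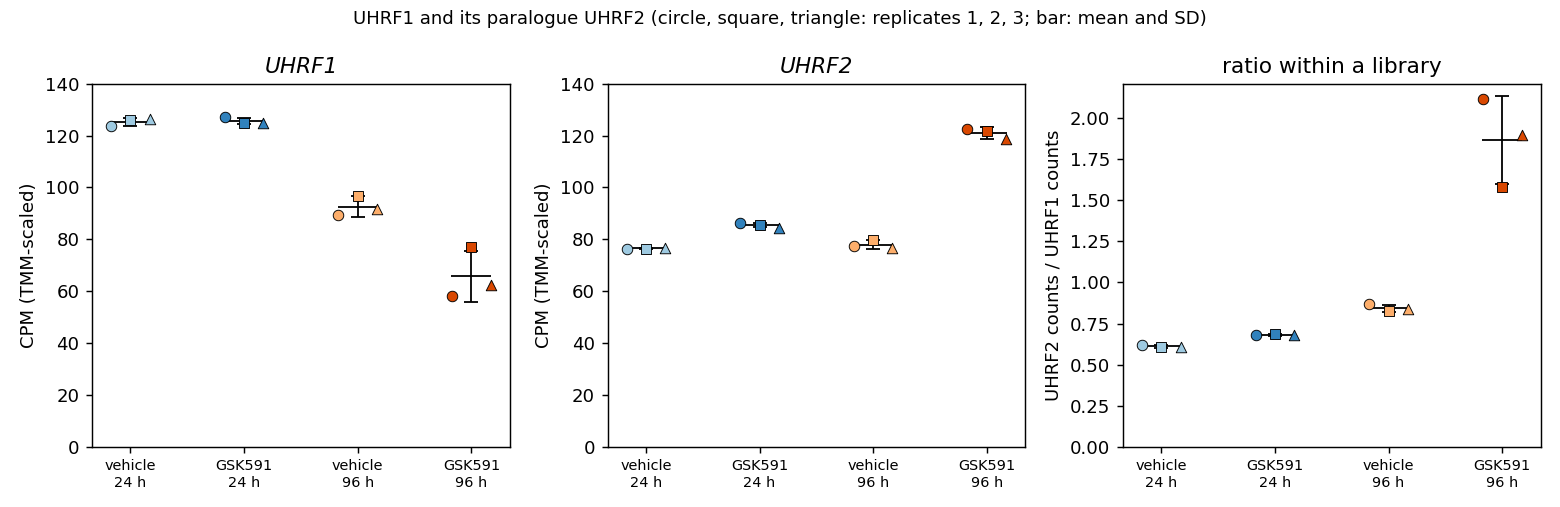
CPM of UHRF1 and UHRF2 and the ratio of UHRF2 to UHRF1 counts (vertical axes) in each library, by group (horizontal axis). Circles, squares and triangles are replicates 1, 2 and 3, and bars give the mean and SD. At 96 h the ratio is 1.58 to 2.12 in the treated libraries and 0.824 to 0.867 in the vehicle libraries.

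DNMT3A, a de novo methyltransferase, was the writer that rose. At 24 h it stood at 28.1, 28.9 and 27.8 CPM in vehicle and 30.4, 29.6 and 28.9 CPM after GSK591, with a log2 fold change of 0.07 ± 0.04 that was not called (adjusted p = 0.244). In the 96 h libraries DNMT3A stood at 34.8, 32.6 and 35.1 CPM in vehicle and 38.9, 42.8 and 40.5 CPM after treatment. The groups of 96 h did not overlap, and the means went from 34.2 ± 1.37 to 40.7 ± 1.97 CPM. DNMT3A rose by 0.27 ± 0.06 (adjusted p = 0.0113), a 1.20-fold change. The second library was the lowest of the vehicle group and the highest of the treated group. Over 15 alternative fits, among them that without both libraries numbered 2, the rise lay between 0.19 and 0.29 and was called in each. The difference between the 96 h and 24 h effects was 0.18 ± 0.07 and was not called (adjusted p = 0.0656), so the later effect is not shown to exceed the earlier one.

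DNMT3B, the other de novo enzyme, was called at neither time. It was low, at 6.66, 6.44 and 7.13 CPM in vehicle and 6.43, 6.99 and 6.34 CPM in treated cells at 24 h. At 96 h the vehicle libraries held 7.57, 10.3 and 8.67 CPM and the treated libraries 7.57, 11.2 and 7.77 CPM. The groups overlapped at both times and the second library was the highest in both groups of 96 h. The log2 fold change was -0.03 ± 0.07 at 24 h (adjusted p = 0.804) and 0.04 ± 0.17 at 96 h (adjusted p = 0.886). The sign of the 96 h value turned to -0.04 without both libraries numbered 2, to -0.18 without GSK591 replicate 2 alone and to -0.08 without vehicle replicate 1.

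DNMT3L, the regulatory partner of the de novo enzymes that has no catalytic activity and is mainly known from germ cells, was scarce but higher after treatment. It was counted 49 to 893 times in the vehicle libraries of 96 h, the highest in the deepest library, and 141 to 214 times in the treated ones. The levels were 1.58, 0.948 and 1.44 CPM in vehicle and 2.72, 3.16 and 2.73 CPM in treated cells at 96 h, with no overlap. DNMT3L rose at 96 h by 1.08 ± 0.19 (adjusted p = 0.0034). The second library was again the lowest in vehicle and the highest after treatment. Over 14 alternative fits, among them that without both libraries numbered 2, the rise lay between 0.81 and 1.28 and was called in each. At 24 h the value of DNMT3L was -0.15 ± 0.17 (adjusted p = 0.591), and the 2 effects differed by 1.21 (adjusted p = 0.00524).

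TET1, the scarcest of the dioxygenases here, was lower in treated cells at 24 h. It was counted 79 to 93 times in the vehicle libraries and 50 to 65 times in the treated libraries of 24 h. The levels were 1.77, 1.68 and 1.44 CPM in vehicle and 1.25, 1.12 and 0.990 CPM after GSK591, with no overlap. TET1 fell by 0.54 on the log2 scale (SE 0.15, adjusted p = 0.0191). The call rests on a narrow margin, since it was lost without GSK591 replicate 3 (adjusted p = 0.0904), vehicle replicate 1 (0.0806) or vehicle replicate 2 (0.0625), and in a fit of all 12 libraries, which brings in the wider spread of 96 h (0.438).

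At 96 h the vehicle libraries held 1.76, 2.42 and 1.68 CPM of TET1 and the treated libraries 0.848, 1.83 and 0.960 CPM. The second treated library lay above 2 of the 3 vehicle libraries, so the groups overlapped. The log2 fold change of -0.63 ± 0.29 was not called (adjusted p = 0.108), though it was in the fit of all 12 libraries (adjusted p = 0.0329). Without both libraries numbered 2 it was -0.94 and called (adjusted p = 0.000181), and without GSK591 replicate 2 alone it was -1.07 (adjusted p = 0.0022). The effects at the 2 times differed by -0.09 ± 0.34, which was not called (adjusted p = 0.872). The part of that library in the result was not tested further.

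TET2, the family member most often mutated in lymphoid and myeloid neoplasms, was called at neither time. It stood at 14.5, 15.1 and 13.6 CPM in vehicle and 15.1, 14.7 and 15.4 CPM in treated cells at 24 h. The values of 96 h were 16.4, 14.9 and 17.6 CPM in vehicle and 16.3, 15.6 and 16.6 CPM in treated cells. Both pairs of groups overlapped. The log2 fold changes were 0.07 ± 0.05 (adjusted p = 0.404) and 0.00 ± 0.08 (adjusted p = 0.991). The TET2 to DNMT1 count ratio did not separate the groups either, with an exact permutation p = 0.2 at 24 h and p = 0.4 at 96 h (n = 3 against 3).

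TET3, the most abundant of the dioxygenase transcripts, was slightly higher in treated cells. At 24 h the vehicle libraries held 99.3, 95.2 and 97.6 CPM and the treated libraries 104, 106 and 103 CPM. The groups did not overlap, and TET3 rose by 0.10 ± 0.03 (adjusted p = 0.0164). That call was lost when library sizes were used without TMM (0.08, adjusted p = 0.052), without GSK591 replicate 1 (adjusted p = 0.056) and without vehicle replicate 2 (adjusted p = 0.092), as in the fit of all 12 libraries (adjusted p = 0.577).

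At 96 h TET3 stood at 79.7, 78.7 and 82.6 CPM in vehicle and 89.7, 103 and 82.7 CPM in treated cells. The third treated library lay just above the highest vehicle library. The log2 fold change was 0.21 ± 0.08 and was not called (adjusted p = 0.0719), and the effects at the 2 times differed by 0.09 ± 0.09 (adjusted p = 0.448). The value depended on single libraries. It was 0.28 and called without GSK591 replicate 3 (adjusted p = 0.0315), 0.10 without GSK591 replicate 2 (adjusted p = 0.113) and 0.09 without both libraries numbered 2 (adjusted p = 0.0978). In the fit of all 12 libraries it was 0.19 and called (adjusted p = 0.0152). Counting groups that did not overlap, 3 of the 7 genes had separate groups at 24 h (DNMT3A, TET1 and TET3), against 31.9% of all genes tested (15.7% higher and 16.2% lower). At 96 h 4 did (DNMT1, DNMT3A, UHRF1 and TET3), against 54.6% (25% higher and 29.7% lower).

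The spread between libraries at 96 h was not the same for all 7 genes. In the GSK591 group the second library was the highest of the 3 for DNMT3A, DNMT3B, UHRF1, TET1 and TET3, and in the vehicle group for DNMT3B, UHRF1 and TET1. For TET1 that library lay 0.68 (GSK591) and 0.33 (vehicle) above its group mean on the log2 scale, and for UHRF1 0.24 and 0.07. DNMT1 and TET2 were lowest in the same libraries, by at most 0.13. DNMT3A and TET3 were lowest in the second vehicle library (-0.07 and -0.03) but highest in the second GSK591 library (0.07 and 0.17). The mean of the 14 proliferation genes was highest in the second library of each group, by 0.20 (GSK591) and 0.16 (vehicle). Whether the proliferation of the cells in those libraries had a part in the spread was not tested.

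**Figure D4:**
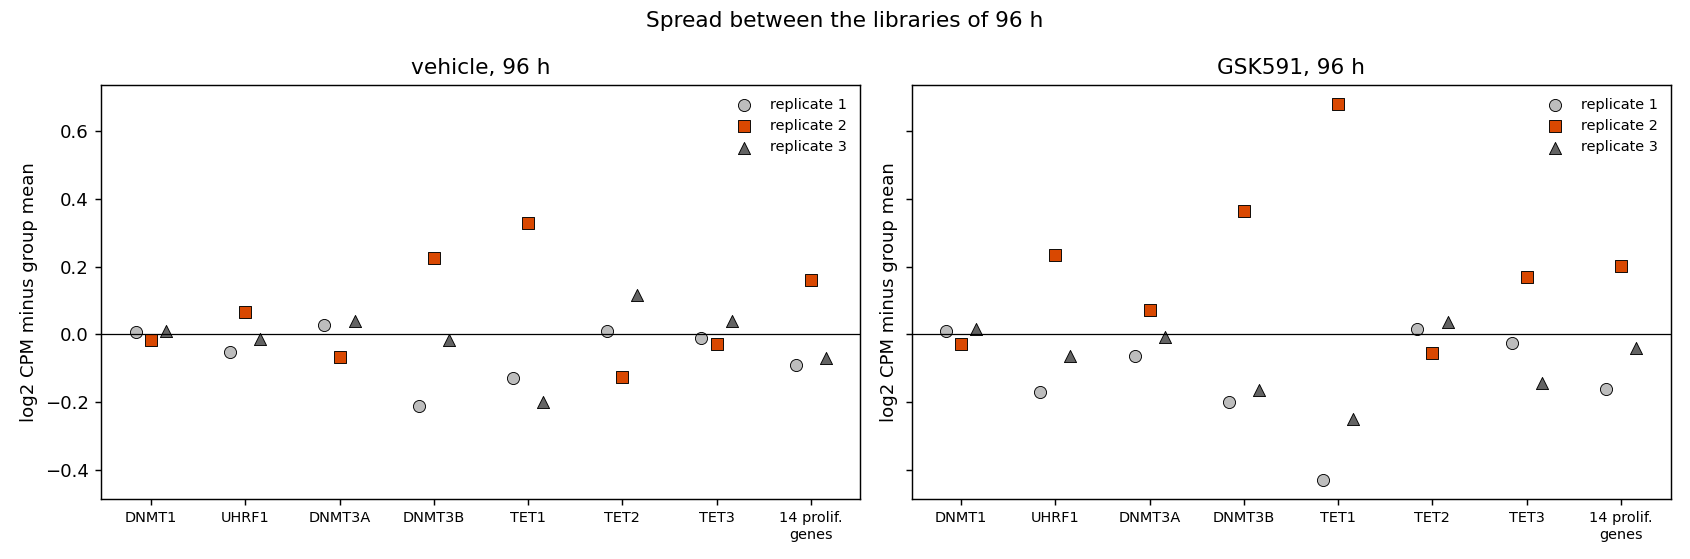
Log2 CPM minus the mean of the group (vertical axis) for the 7 genes and for the mean of 14 proliferation genes (horizontal axis) in the vehicle and GSK591 libraries of 96 h. Symbols are the 3 replicates. Replicate 2 is highest for UHRF1, DNMT3B, TET1 and the proliferation mean in both groups.

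Of the 7 genes, 5 were called between the 2 times in vehicle cells. From 24 to 96 h, DNMT3A rose by 0.28 ± 0.05 (adjusted p = 0.000375), DNMT3B by 0.37 ± 0.14 (adjusted p = 0.0442) and TET2 by 0.18 ± 0.07 (adjusted p = 0.0323). UHRF1 fell by 0.44 (SE 0.07, adjusted p = 0.000292) and TET3 fell by 0.28 (SE 0.06, adjusted p = 0.00187). DNMT1 (-0.06 ± 0.03, adjusted p = 0.139) and TET1 (0.23 ± 0.23, adjusted p = 0.418) were not called. Thus 3 of the 7 were called higher and 2 lower, against 47.7% of all genes, with a median of 0.18 for the 7 and 0.01 for all genes. Time in culture and any difference between the 2 separately deposited tables cannot be told apart. The call of DNMT3B was lost on leaving out any 1 of 8 libraries, with the highest adjusted p (0.171) without vehicle replicate 2 at 96 h. The call of TET2 was lost without vehicle replicate 1 or 3 of either time, with adjusted p between 0.071 and 0.152.

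The order of the 4 groups differed between genes. UHRF1 ran from 65.8 ± 9.86 CPM in GSK591 at 96 h through 92.6 ± 3.88 in vehicle at 96 h to 125 ± 1.55 and 126 ± 1.30 at 24 h, and the last 2 groups overlapped. DNMT3A ran the other way, from 28.3 ± 0.563 CPM in vehicle at 24 h through 29.6 ± 0.752 and 34.2 ± 1.37 to 40.7 ± 1.97 in GSK591 at 96 h, with no neighbours overlapping. TET3 was lowest in vehicle at 96 h (80.3 ± 2.01 CPM) and highest in GSK591 at 24 h (104 ± 1.70 CPM), and its 2 middle groups overlapped. For TET1 each neighbouring pair of groups overlapped. For DNMT1 (595 ± 9.78 to 657 ± 10.4 CPM) the 2 groups of 24 h overlapped. UHRF1 and DNMT3A in treated cells at 96 h each lay beyond the level of vehicle at 96 h, on the side away from vehicle at 24 h. Since both comparisons use the vehicle libraries of 96 h, their values are given side by side only.

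The authors' deposited table gave a like picture for the treatment effect. At 24 h its log2 fold change for TET1 was -0.55 (FDR 0.00464) and for TET3 0.081 (FDR 0.0627), so TET3 did not pass 0.05 there. The table rests on the same libraries, and its 24 h value for TET3 is that found here with library size alone. At 96 h the authors' deposited table gave -0.47 for UHRF1 (FDR 5.31e-05), 0.27 for DNMT3A (FDR 0.0124), -0.64 for TET1 (FDR 0.0532) and 0.21 for TET3 (FDR 0.0889). PRMT5, the target of the inhibitor, was not called for treatment at either time here, at 0.00 ± 0.03 (adjusted p = 0.984) and -0.06 ± 0.05 (adjusted p = 0.373). In vehicle cells PRMT5 was lower at 96 h than at 24 h, by 0.54 (SE 0.04, adjusted p = 7.51e-07). GSK591 blocks the enzyme's activity, so its mRNA is no measure of inhibition.

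The genes most like each member were those with the smallest root mean square difference of centred log2 CPM over the 12 libraries, among about 8931 genes averaging 3 or more on the log2 CPM scale. For UHRF1 these were TTLL12 (0.038), HNRNPA3 (0.046) and HEATR2 (0.053). DNMT3A was nearest to SBNO2 (0.040), ZMYM2 (0.045) and KLHL36 (0.045), and DNMT1 to C2orf18 (0.020), CNDP2 (0.025) and HK1 (0.026). The nearest genes of TET3 were DPH1 (0.048), HGS (0.049) and FAR1 (0.054), and those of TET2 were MAP7D1 (0.045), C11orf2 (0.045) and UBXN6 (0.054). TET1 and DNMT3B had no neighbour as close, but they averaged under 3 themselves, so no gene as scarce was compared with them. Their larger distances are therefore not read as a trait of these genes. Their nearest were RASA4P at 0.145, SNTB1 at 0.155 and ATF5 at 0.179 for TET1, and CDAN1 at 0.075, PLA2G6 at 0.097 and ANKRD36BP2 at 0.101 for DNMT3B.

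Other genes of the pathway were counted by list, and the shares called are to be read against 14.7% at 24 h and 40.2% at 96 h. Without both libraries numbered 2, 8201 of 13566 genes tested were called at 96 h (4099 higher and 4102 lower). List counts given without those libraries are to be read against that larger background. Of 13 partners and paralogues, 12 were tested, with 3 called higher and 2 lower at 24 h and 5 higher and 4 lower at 96 h (median 0.03). Beside UHRF2 and DNMT3L, PCNA, the replication clamp that tethers DNMT1, fell by 0.81 at 96 h (SE 0.12, adjusted p = 0.00188), and CDCA7L, a relative of the HELLS partner CDCA7, fell by 0.34 (SE 0.08, adjusted p = 0.0103). At 24 h PCNA stood at -0.12 and CDCA7L at -0.10, both called, though PCNA was not without GSK591 replicate 1 (adjusted p = 0.056) and CDCA7L was not without any 1 of 4 libraries (vehicle 1 or 2, GSK591 1 or 3). Without both libraries numbered 2, 6 of the 12 were called higher and 6 lower at 96 h.

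Of 12 readers of CpG tested, 4 were called higher and 0 lower at each time, with medians of 0.05 and 0.09. The share called at 96 h in either direction is below the background. Of all genes tested, 7.44% were called higher at 24 h and 20.7% at 96 h, and the share of readers called higher is above both. With 12 genes, neither count is read as a property of the list. Without both libraries numbered 2 the counts at 96 h were 7 higher and 1 lower. CXXC4, which binds unmethylated CpG and is known as a TET2 partner, rose at 96 h by 0.85 ± 0.15 (adjusted p = 0.00354), from 15.3 ± 2.65 to 27.4 ± 4.76 CPM. KDM2B, a CpG island-binding histone demethylase, rose by 0.28 ± 0.05 (adjusted p = 0.00372). At 24 h CXXC4 was at 0.03 and not called, and KDM2B at 0.08 and called, a call lost without any 1 of 5 libraries (each but GSK591 replicate 2).

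The next list held base excision genes that act after TET oxidation or deamination, with OGT and the GADD45 genes. Of 14 tested, 2 were called higher and 2 lower at 24 h and 1 higher and 5 lower at 96 h (median -0.16), or 1 higher and 7 lower without both libraries numbered 2. The share called at 96 h is near the background, and the lower calls include the stress-response genes GADD45A (-0.57 ± 0.13) and GADD45B (-0.41 ± 0.12). TDG, the glycosylase that removes the oxidised products of TET enzymes, was called higher at 24 h (0.09 ± 0.03, adjusted p = 0.0364). At 96 h it was not called (0.04 ± 0.06). UNG, the uracil glycosylase, fell by 0.71 (SE 0.09, adjusted p = 0.00109), and NEIL3 fell by 0.80 (SE 0.17, adjusted p = 0.00739). NEIL1, a glycosylase of oxidised bases, rose by 1.09 ± 0.11 (adjusted p = 0.000553), from 23.3 ± 2.10 to 48.9 ± 7.15 CPM. At 24 h NEIL1 (0.48) was called higher and NEIL3 (-0.17) lower, while UNG (-0.07) was not called. Those calls of NEIL1 and NEIL3 held in 12 and 11 of 13 alternative fits.

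The enzymes draw on 2 supply routes. S-adenosylmethionine is the methyl donor of the DNMTs and of PRMT5, and 2-oxoglutarate is the co-substrate of the TETs. Of 13 tested genes of the methyl donor cycle, 0 were called higher and 5 lower at 24 h and 3 higher and 8 lower at 96 h (median -0.21), or 4 and 9 without both libraries numbered 2. MAT2A, which makes S-adenosylmethionine, fell at 96 h by 0.47 (SE 0.07, adjusted p = 0.00191) and stood at 395 ± 15.1 CPM in vehicle and 283 ± 21.4 CPM in treated cells. SHMT1, a one-carbon enzyme, fell by 0.50 (SE 0.07), while GNMT, which consumes S-adenosylmethionine, rose by 0.86 ± 0.13. At 24 h MAT2A (-0.14) and SHMT1 (-0.22) were also called lower. Each of these calls held in 12 of 13 alternative fits, with a highest adjusted p of 0.311 (MAT2A) and 0.117 (SHMT1).

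Of 14 genes that make or remove 2-oxoglutarate and the compounds that compete with it, 1 was called higher and 0 lower at 24 h and 1 higher and 7 lower at 96 h (median -0.17). Those lower at 96 h included FH (-0.48 ± 0.06), which removes fumarate, and SDHA (-0.31 ± 0.06), which removes succinate. Of the other cytosine-modifying enzymes 7 were tested, with 2 called higher and 1 lower at 96 h and 5 higher and 2 lower without both libraries numbered 2. APOBEC3F, a cytidine deaminase, rose by 0.65 ± 0.20 (adjusted p = 0.0301), a call lost without any 1 of 4 libraries (vehicle 2 or 3, GSK591 1 or 3). APOBEC3B fell by 0.81 (SE 0.15, adjusted p = 0.00471).

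Markers of dividing cells were lower beside UHRF1. Of 14 proliferation genes, 0 were called higher and 6 lower at 24 h, and 0 higher and 12 lower at 96 h, with medians of -0.05 and -0.62. Without both libraries numbered 2, 13 were called lower at 96 h. RRM2, a ribonucleotide reductase subunit, fell by 1.77 at 96 h (SE 0.21), and CDC6, a replication licensing factor, fell by 0.94 (SE 0.11). The part of cell division in the UHRF1, PCNA and UNG results was not tested. Of the 8 B-cell markers 3 were called higher and 1 lower at 96 h, or 5 and 1 without both libraries numbered 2. PAX5 (0.21 ± 0.05) rose and CD22 (-0.24 ± 0.07) fell. The PAX5 call was lost without any 1 of 5 libraries (each but GSK591 replicate 2), and the CD22 call without any 1 of 4 (vehicle or GSK591 replicate 1 or 3). Of the 9 markers of other cells only 3 passed the filter on low counts at 96 h and 2 at 24 h. A gene that passes through the group where it is high had to differ, so no count is drawn from those that passed. The myeloid gene CD14 rose by 1.64 ± 0.35, from 0.272 ± 0.132 to 0.864 ± 0.301 CPM, and that limit holds for it too. Its vehicle libraries of 96 h held 7 to 159 counts, the highest in the deepest library. The T-cell, epithelial and red-cell markers were too low to test.

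**Figure D5:**
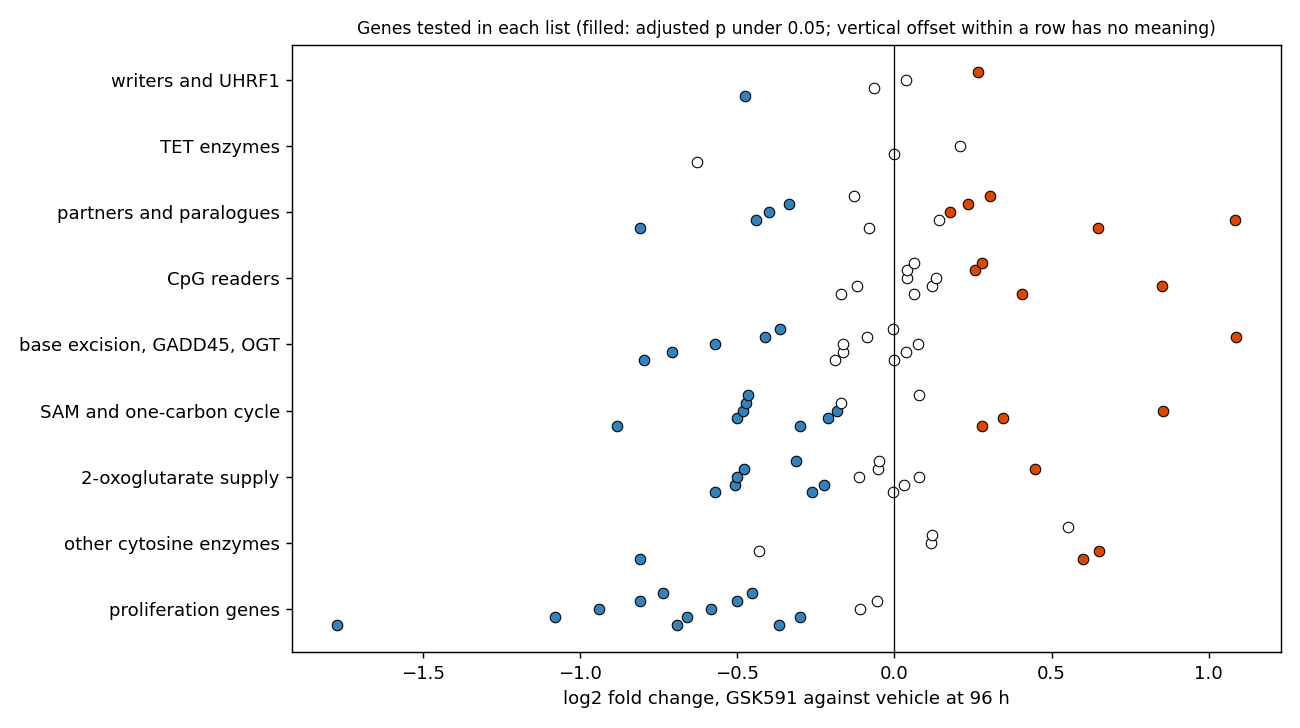
Log2 fold change of GSK591 against vehicle at 96 h (horizontal axis) for each tested gene of the lists (rows). Filled points passed an adjusted p of 0.05, and the vertical offset within a row has no meaning. The proliferation genes lie on the lower side, 12 of 14 called, and the 4 readers called lie on the higher side.

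Germline genes whose promoters are known to be silenced by DNA methylation in somatic cells were near the limit of detection. Of 22 such genes, 20 or more had a mean under 1 CPM in each group, and the summed level was 1.59 to 1.84 CPM in vehicle and 2.55 to 3.70 CPM in treated libraries at 96 h. At 24 h it was 1.56 to 1.69 CPM in vehicle and 1.46 to 1.58 CPM in treated libraries. At 96 h 13 of the 22 genes had no counts in vehicle and 11 had none in treated libraries, and SYCP3 had the highest mean in each group. The sum thus rests on few genes and is not read as a rise of the class. SYCP3, of the meiotic chromosome axis, stood at 0.653, 0.561 and 0.659 CPM in vehicle and 1.29, 1.27 and 1.05 CPM in treated cells at 96 h and rose by 0.95 ± 0.17 (adjusted p = 0.00403). STK31, a germ-cell kinase, had 5 to 67 counts in the vehicle libraries and 11 to 21 in the treated ones at 96 h. Its highest vehicle count came from the deepest library, and no change is read from it. Only 4 of the 22 passed the filter on low counts at 96 h and 2 at 24 h, and a gene that passes through the group where it is high had to differ, so no count is drawn from those that passed.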

How the data were processed

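Poly(A) RNA of SUDHL6 cells was sequenced in 12 libraries made with the Illumina TruSeq RNA kit after Trizol extraction and DNase treatment, per the labels' protocols. Raw read counts by gene symbol were deposited in separate tables for 24 and 96 h. STAR, HTSeq and edgeR were used with the build hg19 (GRCh37), per the submitters' processing notes. Versions, annotation and strand setting: not given in the sources used here. Thus reads of overlapping or antisense genes cannot be told apart. The authors also deposited, per the file headers, a table for each time with a log2 fold change of GSK591 over vehicle, an average log2 CPM, a p-value and its FDR.

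Each time was fitted alone with its 6 libraries in edgeR 4.0.16 (R 4.3.3): filterByExpr, TMM, and the quasi-likelihood test, two-sided, with Benjamini-Hochberg adjustment over all genes tested at 0.05. This kept 13173 genes at 24 h and 13514 at 96 h. The difference between times and vehicle at 96 h against 24 h came from 1 fit of all 12 libraries with 4 group means (13665 genes). The SE is the size of the log2 fold change divided by the square root of F. The biological coefficient of variation was 2.35% at 24 h and 8.19% at 96 h. Replicates of a group differed beyond sampling noise by chi-square over genes. At 96 h the chi-square per degree of freedom was 17.5 to 41.9 for pairs with a library numbered 2. It was 3.05 (vehicle) and 9.56 (GSK591) for the pairs without one. All 12 libraries were kept in the main fits. Gene lengths were exon unions of the GENCODE 29 basic annotation, and promoter letters came from RefSeq on GRCh38.p14. Since that is another build than the counts', only these windows have coordinates. The fits were also run on simulated data, with changes larger than most seen in the genes described here. That run is not used as support for any value.

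The members and lists were chosen with earlier results of these data known. Named are the 7 members, PRMT5, from each list the 2 called genes with the smallest p in each direction at 96 h, and for each member the 3 nearest genes. Some genes that the rule selects are left out here. TDG, GADD45A and GADD45B are named outside this rule, after their values were seen. Alternatives were RLE factors, library size alone, other filters, DESeq2 1.42.0, the replicate number as a block, leaving out libraries, thinning the deepest library to the median total, and 1 fit of all 12 libraries.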

Additional observations from a re-analysis of the deposited data

Results flagged for a closer look

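For these genes the test of the difference between the 96 h and the 24 h effect of GSK591 was called (edgeR's quasi-likelihood test over all 12 libraries). Each value is the log2 effect at 96 h less that at 24 h. Of all genes tested, 24.1% were called for this difference. Apart from the 7 members and PRMT5, the genes looked at were list genes named for the smallest p at 96 h. The same 96 h libraries enter the difference, so a call is partly built in by that choice and is not separate evidence. Among the 7 writers and erasers this held for UHRF1 (-0.49).

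Among partners, paralogues and CpG readers it held for DNMT3L (1.21), UHRF2 (0.47), PCNA (-0.71), CXXC4 (0.80) and KDM2B (0.19). Among base excision and cytosine deaminase genes it held for NEIL1 (0.59), UNG (-0.65), NEIL3 (-0.64), APOBEC3B (-0.93) and APOBEC3F (0.74). The value of APOBEC3F was no longer called without any 1 of 10 libraries, that of NEIL3 without any 1 of 8 and that of KDM2B without any 1 of 4.

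Among methyl donor and 2-oxoglutarate genes it held for GNMT (0.77), MAT2A (-0.34), SHMT1 (-0.29), FH (-0.45) and SDHA (-0.30). Among proliferation genes it held for RRM2 (-1.48) and CDC6 (-0.87).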

How the results depend on the processing

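The calls of UHRF1 and DNMT3A at 96 h, and of UHRF1 for the difference between times, held under every alternative run. The total of genes called at 24 h went from 1940 to 29 with all 12 libraries in 1 fit, where TET1 (-0.54, adjusted p = 0.438) and TET3 (0.10, adjusted p = 0.577) were not called. With library size alone the 24 h split was 563 higher and 1220 lower, against 980 and 960, and TET3 was at 0.081. In that setting the difference between times gave 1778 higher and 1474 lower, against 1499 and 1799, and vehicle over time 4167 and 2503, against 3309 and 3207. The median of all genes over time moved from 0.01 to 0.07.

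Without both libraries numbered 2 at 96 h, 8201 genes were called at 96 h and 6022 for the difference, TET1 at 96 h was -0.94, DNMT3B was -0.040 at 96 h and -0.019 for the difference, and TET3 was -0.020 for the difference. TET1 at 96 h was also called with all 12 libraries in 1 fit (-0.63), as was TET3 (0.19). DESeq2 called DNMT1 in vehicle over time (-0.066), and a filter of at least 5 CPM called DNMT3A for the difference (0.20). Values near 0 changed sign without being called. UHRF1 at 24 h was -0.014 with library size alone and -0.0014 with the 5 CPM filter, and PRMT5 was -0.016 and -0.0043. TET2 at 96 h was 0.0018 with RLE factors, 7.46e-06 with library size alone, 0.0089 with the 5 CPM filter, 0.0015 with DESeq2 and 0.0025 with the replicate block. SHMT1 over time was 0.0098 with library size alone. TET1 was too low for the 5 CPM filter, and DESeq2 gave it no adjusted p at 24 h.

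Leaving out 1 library at a time, the genes called ranged from 980 to 2208 at 24 h, 3438 to 7485 at 96 h and 1991 to 5712 for the difference. TET1 ranged from -0.62 to -0.46 at 24 h, -1.07 to -0.44 at 96 h and -0.53 to 0.11 for the difference. TET3 ranged from 0.083 to 0.11 at 24 h and 0.10 to 0.28 at 96 h, and TET2 from -0.063 to 0.049 at 96 h and 0.13 to 0.24 over time. DNMT3B ranged from -0.080 to 0.0099 at 24 h, -0.18 to 0.15 at 96 h, -0.13 to 0.17 for the difference and 0.25 to 0.49 over time, and DNMT3A from 0.14 to 0.21 for the difference. At 24 h UHRF1 ranged from -0.0052 to 0.011, PRMT5 from -0.031 to 0.022, CXXC4 from -0.032 to 0.094, SDHA from -0.037 to 0.00085 and SYCP3 from -0.03 to 0.62.

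Replicate numbers pair vehicle and treated libraries only by label: same-numbered libraries deviated together at r between 0.06 and 0.48 at 24 h and 0.05 and 0.60 at 96 h, and not every library correlated best with its own number. With the replicate block, 2811 genes were called at 24 h, 6293 at 96 h, 4167 for the difference and 7043 in vehicle over time, and TET1 at 96 h was called (-0.72). TET1 rests on 44 to 124 counts in the treated libraries of 96 h, which limits its precision.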
